A study of Homo sapiens with 6 samples.

Results

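Receptor tyrosine kinases are single-span membrane proteins that bind a ligand outside the cell and phosphorylate tyrosines inside it. The 47 genes described here are those whose name in the deposited count table is on a fixed list of this class, out of 57341 named genes, and all 47 were found. The list covers the EGF, FGF, HGF, PDGF, VEGF, TIE, neurotrophin, RET, ALK, DDR, TAM, Eph, ROS1 and insulin receptor families and the receptors that bind Wnt or related ligands, with FGFRL1, which lacks the kinase domain, counted among the FGF receptors. The RNA came from H295R, an established human adrenocortical carcinoma line that makes steroids, and from H295R-PM-Ptc+, the fraction of that line sorted by flow cytometry for the Hedgehog receptor Ptch1 at the plasma membrane and then grown out. No drug or other treatment was given to either population, and both grew in the same medium, which contains insulin. Each population has 3 libraries.

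Receptor tyrosine kinases pass signals through adaptor proteins such as Grb2 and Shc to the Ras-ERK and PI3K pathways, and induced inhibitors such as Sprouty proteins and dual-specificity phosphatases restrain them. Eph receptors differ from the other families in that their ligands, the ephrins, sit on neighboring cells. Adrenocortical carcinomas commonly overexpress IGF2, which acts through IGF1R, a receptor of this class that is taken here only as part of a comparison list.

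The libraries held 23264403 to 25813247 counted fragments. PTCH1, the gene of the protein used for the sort, had 441, 559 and 579 counts in the libraries labelled H295R and 248, 326 and 319 in the libraries labelled H295R-PM-Ptc+, so it was lower in the libraries named for the sorted cells (log2 fold change -0.81, standard error [SE] 0.147, adjusted p = 0.0207, edgeR). The normalized values published with the study carry the opposite group name for each of the same columns. Every direction below therefore follows the labels of the deposited libraries, called parental-labelled (H295R) and Ptc+-labelled (H295R-PM-Ptc+), and turns around if those labels are exchanged. Of 10 adrenocortical markers, 9 had more than 3 counts in a library, and their summed level was 969 to 1240 CPM (counts scaled by library size) in the parental-labelled and 1040 to 1330 CPM in the Ptc+-labelled libraries, while CYP11B1 stayed at 3 counts or fewer and CYP21A2 was higher in the Ptc+-labelled libraries (281 to 365 against 514 to 640 counts). The other 8 tested markers of this list did not pass, among them INHA, which had 84 to 114 counts against 70 to 72 in the Ptc+-labelled libraries. PTPRC and CD68 of 6 immune markers, CLDN5 of 6 endothelial markers and LUM of 7 fibroblast markers were at 0 in all 6 libraries. Other markers of these lists had counts in every library. COL1A1 had 188 to 220 against 224 to 244 counts in the Ptc+-labelled libraries, and CD14 had 15 to 29 against 25 to 32. Neither passed the test. The summed fibroblast markers, mostly FAP, were at 44.3 to 49.4 CPM against 56.8 to 61.8 CPM in the Ptc+-labelled libraries, and the summed immune markers at 1.13 to 1.57 against 2.59 to 7.71 CPM, with CD79A at 11 to 12 and 33 to 169 counts. THY1 of the fibroblast markers (15 to 18 against 36 to 45 counts) and CD79A passed the test as higher. The part of these markers in the results below was not tested.

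Of the 47 genes, 28 had enough counts for a test. Among these, EPHA2 was higher and EPHB3 lower in the Ptc+-labelled libraries at an adjusted p under 0.05 (edgeR's quasi-likelihood test, Benjamini-Hochberg over 16710 genes). In RNA of whole cultures, fewer cells that express a gene and less RNA in each cell cannot be told apart. These 2 of 28 genes are 7.14%, where 3.73% of all tested genes passed (2.42% higher and 1.32% lower). One of the 2, EPHA2, entered the test only through the group in which it was higher, and a filter of 10 counts in each of the libraries left 1 of 22 receptors that passed, beside 479 of 15493 genes. The median log2 fold change was 0.08 over the 28 receptors and 0.00 over all tested genes, and 23 of the 28 lay within 0.5 of 0. Same-numbered replicates of the groups deviated together, most clearly replicate 1. With the replicate number as a block 10 of the 28 passed, 7 higher and 3 lower. That is 35.7%, beside 22.5% of all tested genes in the same fit (12.1% higher and 10.4% lower). No overlap between the 3 values of one group and the 3 of the other was seen for 9 of the 28 genes (32.1%, beside 23.5% of all tested genes).

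EPHA2 and EPHB3 lie on chromosomes 1 and 3. The 250 bases before the RefSeq start of each gene are shown because these are the receptors that passed the test in both fits. Capitals mark cyclic AMP response elements (TGACGTCA) and GC boxes (GGGCGG), searched on both strands. The EPHA2 window lies on GRCh38.p14 at chr1:16156070-16156319, minus strand, and the EPHB3 window at chr3:184561535-184561784, plus strand.
EPHA2: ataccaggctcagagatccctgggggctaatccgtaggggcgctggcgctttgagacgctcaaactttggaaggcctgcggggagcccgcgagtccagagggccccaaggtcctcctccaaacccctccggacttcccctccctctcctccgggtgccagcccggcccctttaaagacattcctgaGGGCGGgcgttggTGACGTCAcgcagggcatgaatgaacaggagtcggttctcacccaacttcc
EPHB3: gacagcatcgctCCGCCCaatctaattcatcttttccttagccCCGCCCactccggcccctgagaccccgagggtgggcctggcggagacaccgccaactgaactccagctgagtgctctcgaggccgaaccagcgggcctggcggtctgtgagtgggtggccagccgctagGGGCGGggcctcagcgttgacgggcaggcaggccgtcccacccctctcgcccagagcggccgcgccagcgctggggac
The EPHA2 window held 1 cyclic AMP response element, whose first base lies 51 bases before the start, and 1 GC box. The EPHB3 window held 3 GC boxes and no cyclic AMP response element. That element was found in 1.65% of the 35116 RefSeq promoter windows of this length, and of the 43 receptors with a window only EPHA2 and FLT1 had it. GC boxes were found in 42.6% of all windows and in 79.1% of the receptors with a window. The first share counts windows and the second counts genes, so they are not like for like. The GLI sequence GACCACCCA and the NR5A1 sequence CAAGGTCA, which factors of the Hedgehog pathway and of the adrenal cortex bind, were in none of the 43 receptors' windows and in 0.199% and 1.14% of all windows. No window was given for ERBB3, FGFR1, FLT4 and INSRR. A match describes the letters of these windows and was not tested for binding.

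Of the 11 Eph receptors 7 were tested, and both calls were among them, beside 3.73% of all tested genes. EPHA2, a receptor for ephrin-A ligands found in many epithelial cells, spans chr1:16124337-16156087 (hg38, minus strand). It had 4, 4 and 9 counts in the parental-labelled and 22, 29 and 28 counts in the Ptc+-labelled libraries, which are 0.167, 0.157 and 0.364 CPM against 0.861, 1.17 and 1.21 CPM. All 3 Ptc+-labelled libraries lay above the other 3. The log2 fold change was 2.20 (SE 0.358, adjusted p = 0.0119), and the ratio of the summed counts was 4.68 with a 95% exact interval of 2.74 to 8.42 that covers counting error only. EPHA2 passed the filter on low counts through the Ptc+-labelled libraries alone. Its adjusted p was 0.0625 without parental-labelled replicate 2, 0.0554 without Ptc+-labelled replicate 2 and 0.0561 without Ptc+-labelled replicate 3, at log2 fold changes of 1.99, 2.14 and 2.11.

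EPHB3, a receptor for ephrin-B ligands, spans chr3:184561784-184582409 (plus strand). Its CPM were 4.69, 4.21 and 4.94 in the parental-labelled libraries and 2.15, 2.09 and 3.20 in the Ptc+-labelled ones, from 107 to 122 and from 52 to 74 counts. All 3 parental-labelled libraries lay above the others. The log2 fold change was -0.90 (SE 0.190, adjusted p = 0.0378). The adjusted p rose to 0.0856 without parental-labelled replicate 2, 0.134 without parental-labelled replicate 3, 0.0995 without Ptc+-labelled replicate 1 and 0.146 without Ptc+-labelled replicate 2, at log2 fold changes from -1.13 to -0.79 over all 6 such fits. The 40 tested neighbors of EPHB3 on chromosome 3 had a median log2 fold change of 0.02, and none of them fell as far. The 40 around EPHA2 had a median of 0.09, and 1 of them rose further.

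Among the other Eph receptors, EPHB4 and EPHB2, which bind ephrin-B ligands, were the most abundant. EPHB4 had 176, 157 and 184 CPM in the parental-labelled and 172, 182 and 189 CPM in the Ptc+-labelled libraries (log2 fold change 0.07, SE 0.0842). EPHB2 had 39.9, 44.1 and 44.8 against 37.1, 45.1 and 47.8 CPM (log2 fold change 0.01, SE 0.104). Both overlapped between the groups, as did EPHA4 at 2.55 to 3.10 CPM over all 6 libraries. EPHA7 and EPHB1 stood at 4 to 20 counts per library. EPHA3 had 2, 3 and 1 counts and EPHA5 2, 1 and 3 counts in the parental-labelled libraries, and both had none in the Ptc+-labelled ones. EPHA1 had none in the parental-labelled and 5, 1 and 1 in the Ptc+-labelled libraries. EPHB6, whose kinase domain is inactive, held 1 to 5 counts. EPHA1, EPHA3, EPHA5 and EPHB6 were not tested. A count of 0 allows up to 3 counts, or 0.117 to 0.130 CPM at the depth of these libraries, so no fold is given for EPHA1, EPHA3 and EPHA5.

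**Figure D1:**
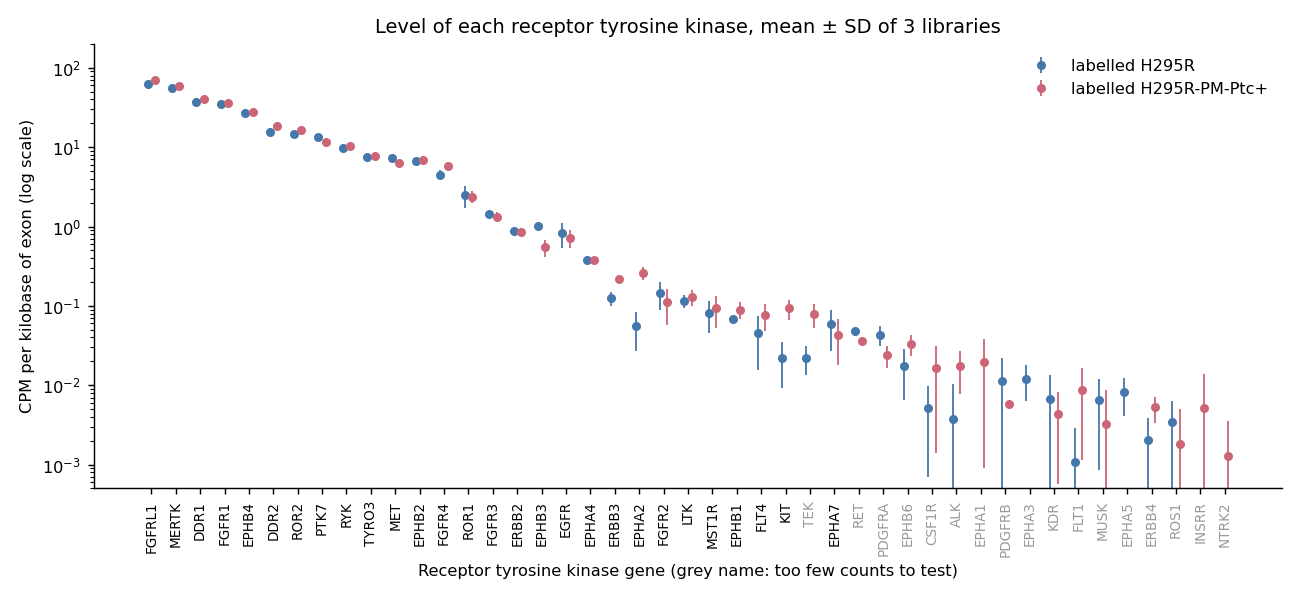
Mean level of each receptor in CPM per kilobase of exon (log axis), with the SD of 3 libraries, in the libraries labelled H295R (blue) and H295R-PM-Ptc+ (red). Names in grey were not tested, TIE1 and NTRK3 had no counts and are not drawn, means of 0 are not drawn and bars that reach 0 are cut at the lower edge. FGFRL1 and MERTK had the highest levels in both groups, and EPHA2, EPHB3 and KIT lay well below them.

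Levels of different genes were compared per kilobase of exon. The length is that of all annotated exons of a gene merged, 12698 bases for FGFR1 and 4145 for FGFRL1. The order below depends on this length. In CPM alone FGFR1 was above FGFRL1, at means of 441 against 256 in the parental-labelled and 461 against 291 in the Ptc+-labelled libraries. FGFRL1 was highest, at a median of 66.6 CPM per kilobase over the 6 libraries (53.4 to 74.1). MERTK, a receptor that takes part in the uptake of dying cells, followed at 55.8 (54.2 to 60.6), and its range overlapped that of FGFRL1. DDR1, a collagen receptor, and FGFR1, a receptor for many FGF ligands, had medians of 39.9 and 35.7 and overlapped each other but not MERTK. EPHB4 at 27.8 lay apart from the genes above and below it. DDR2, the second collagen receptor, ROR2, which binds WNT5A, and PTK7, a pseudokinase of the Wnt pathway, had 16.4, 15.9 and 12.4, and neighbors among these 3 overlapped. RYK, also a Wnt receptor, had 9.86 and TYRO3, a relative of MERTK, 7.54, and PTK7, RYK and TYRO3 did not overlap. FGFRL1 to PTK7, 8 genes in all, made up 84.6% to 86.8% of the summed per-kilobase level of the 47 genes in each library. At the other end, TIE1 and NTRK3 had no counts, and 10 of the 47 genes had at most 3 counts in every library.

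In the FGF receptor family, FGFR1 had 462, 418 and 444 CPM in the parental-labelled and 442, 463 and 479 CPM in the Ptc+-labelled libraries. FGFRL1, a decoy-like relative without kinase activity, had 283, 221 and 265 against 297, 269 and 307 CPM. The groups overlapped in both genes. FGFR1 had a log2 fold change of 0.06 (SE 0.0768, adjusted p = 0.752). FGFRL1 had one of 0.18 (SE 0.104, adjusted p = 0.420), and passed only with the replicate block (adjusted p = 0.00826), being higher in the Ptc+-labelled library of each pair. FGFR4, the receptor for FGF19 in liver, had 24.7, 19.0 and 21.7 against 27.7, 26.1 and 29.6 CPM without overlap. Its log2 fold change of 0.35 (SE 0.108, adjusted p = 0.122) passed with the block (0.00201) and without parental-labelled replicate 1 (0.0331). FGFR3 stood at 5.63 to 7.44 CPM and FGFR2 at 0.548 to 1.54 CPM over all 6 libraries, with overlap in both. KLB, the co-receptor that FGFR4 needs for FGF19, had at most 3 counts in a library.

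The ERBB receptors bind EGF-like ligands and neuregulins. EGFR had 6.40, 12.5 and 13.0 CPM in the parental-labelled and 6.73, 10.2 and 11.0 CPM in the Ptc+-labelled libraries. Replicate 1 was the lowest in both groups, and the libraries differed more between replicate 1 and the others than between the groups (log2 fold change -0.20, SE 0.270). Among the tested receptors, replicate 1 was also the lowest in both groups for 7 others, FGFR2, MET, FLT4, DDR2, MERTK, EPHB2 and ROR1, and the highest in both for ERBB2 and LTK. ERBB2, the partner receptor without a ligand of its own, had 10.3, 8.19 and 8.94 against 9.74, 7.88 and 9.07 CPM. ERBB3, which binds neuregulins and has little kinase activity, had 1.09, 0.866 and 1.29 against 2.03, 1.73 and 1.86 CPM, and its groups did not overlap. The log2 fold change of ERBB3 was 0.79 (SE 0.211, adjusted p = 0.0819) and passed with the replicate block (0.0143). ERBB4 had at most 2 counts in a library.

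KIT, the receptor for stem cell factor, had 4, 4 and 1 counts in the parental-labelled and 10, 17 and 11 counts in the Ptc+-labelled libraries. The groups did not overlap. The log2 fold change was 2.04 (SE 0.483, adjusted p = 0.0552) and passed with the block (0.00637) and without a filter on low counts (0.0204). The ratio of summed counts was 4.25 (95% exact interval 2.02 to 9.99), and the gene passed the filter through the Ptc+-labelled libraries alone. The other receptors of this family, PDGFRA, PDGFRB and CSF1R, held 4 to 12, 0 to 4 and 0 to 4 counts and were not tested. PDGFRA shares exon positions on one strand with FIP1L1, so its few counts are uncertain.

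The vascular receptors were near the detection limit. FLT1 held 0 to 4 counts, KDR 0 to 2, and TIE1 none, while FLT4, the VEGF-C receptor, held 4 to 22 counts with overlap between the groups. TEK, the angiopoietin receptor, had 2, 4 and 2 against 6, 11 and 11 counts and was too low for the test. All 3 Ptc+-labelled libraries were above the others, with a ratio of summed counts of 3.52 (95% exact interval 1.56 to 8.94). Of the 6 endothelial markers, PECAM1, VWF and CLDN5 had at most 3 counts in every library and CDH5 at most 5, while EMCN had 8 to 10 and ESAM 11 to 29 counts. Their summed level was 1.02 to 1.17 CPM in the parental-labelled and 1.08 to 1.68 CPM in the Ptc+-labelled libraries, and its part in these values was not tested. Of the remaining families, RET held 5 to 9 counts, LTK 8 to 14 and ALK 0 to 4, and NTRK2, ROS1, INSRR and MUSK at most 2. RET was too low for the test. In CPM its 3 Ptc+-labelled libraries were below the others, at 0.216 to 0.274 against 0.293 to 0.354. The ratio of its summed counts was 0.755 (95% exact interval 0.386 to 1.45).

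DDR2 had 146, 176 and 174 CPM in the parental-labelled and 177, 210 and 203 CPM in the Ptc+-labelled libraries. The groups did not overlap, by a narrow margin. The log2 fold change of 0.25 (SE 0.101, adjusted p = 0.240) passed with the replicate block (4.22e-04), with rises of 0.28, 0.26 and 0.23 in the pairs. DDR1 had 382, 299 and 340 against 364, 363 and 396 CPM (log2 fold change 0.14, adjusted p = 0.543) and overlapped. Reads of DDR1 could also be placed on alternate haplotypes of the MHC region, which the table counts under the same name.

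MET, the HGF receptor, was at 50.4, 51.9 and 52.5 CPM against 39.4, 47.6 and 45.9 CPM. The groups did not overlap, and the log2 fold change of -0.22 (SE 0.0868, adjusted p = 0.233) passed with the block (0.0109). MST1R, its relative, held 7 to 18 counts. HGF, the ligand of MET, had at most 3 counts in a library.

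None of the 4 tested receptors that bind Wnt or related ligands passed without the replicate block, and PTK7 and ROR2 passed with it, in opposite directions, beside 22.5% of all tested genes. PTK7 had 129, 112 and 125 CPM in the parental-labelled and 100, 99.1 and 112 CPM in the Ptc+-labelled libraries, close together at the border. Its log2 fold change was -0.24 (SE 0.0863, adjusted p = 0.196), and it passed with the block (0.00284). ROR2 had 93.1, 76.4 and 87.7 against 96.0, 91.7 and 98.4 CPM with overlap, at a log2 fold change of 0.15 (SE 0.0885, adjusted p = 0.432), which also passed with the block (0.0357). ROR1 ran from 10.9 to 21.1 CPM. RYK had 78.0, 78.9 and 77.9 against 79.8, 84.7 and 85.8 CPM without overlap, but the log2 fold change was 0.09 (adjusted p = 0.560, and 0.189 with the block). MERTK and TYRO3 of the TAM family, at 255 to 285 and 78.1 to 90.2 CPM, overlapped between the groups.

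**Figure D2:**
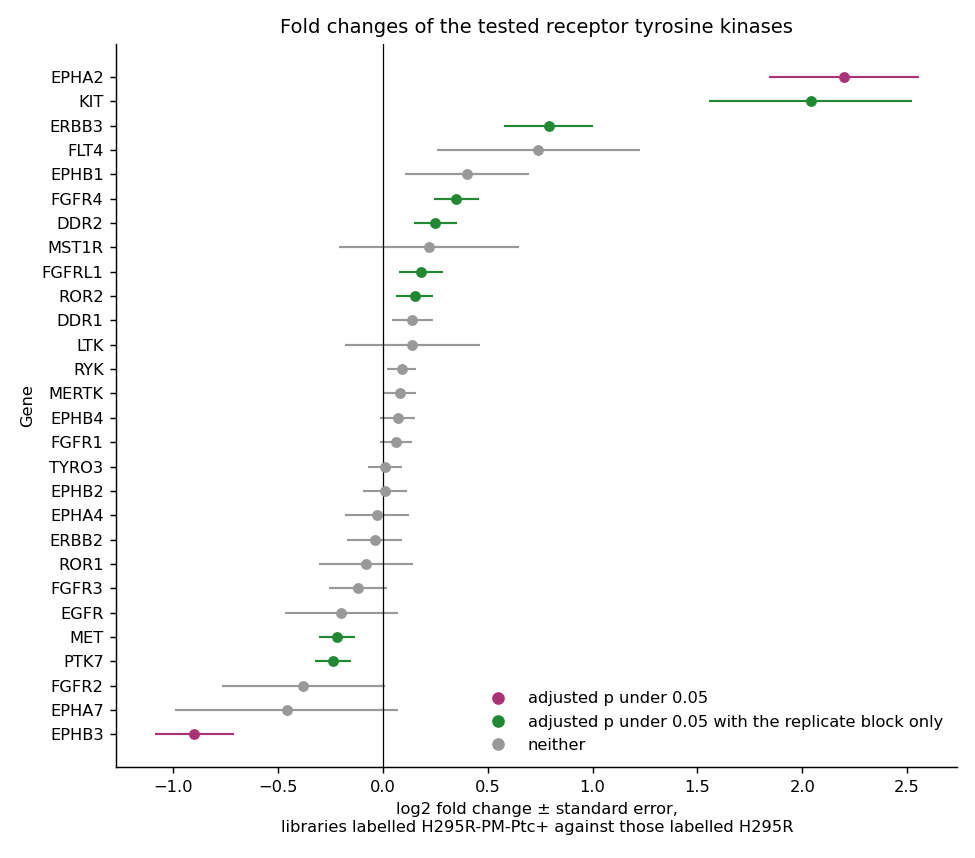
Log2 fold change of each of the 28 tested receptors with its standard error, Ptc+-labelled against parental-labelled libraries, colored by the adjusted p with and without the replicate block. EPHA2 (2.20) and EPHB3 (-0.90) are the ends of the range.

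**Figure D3:**
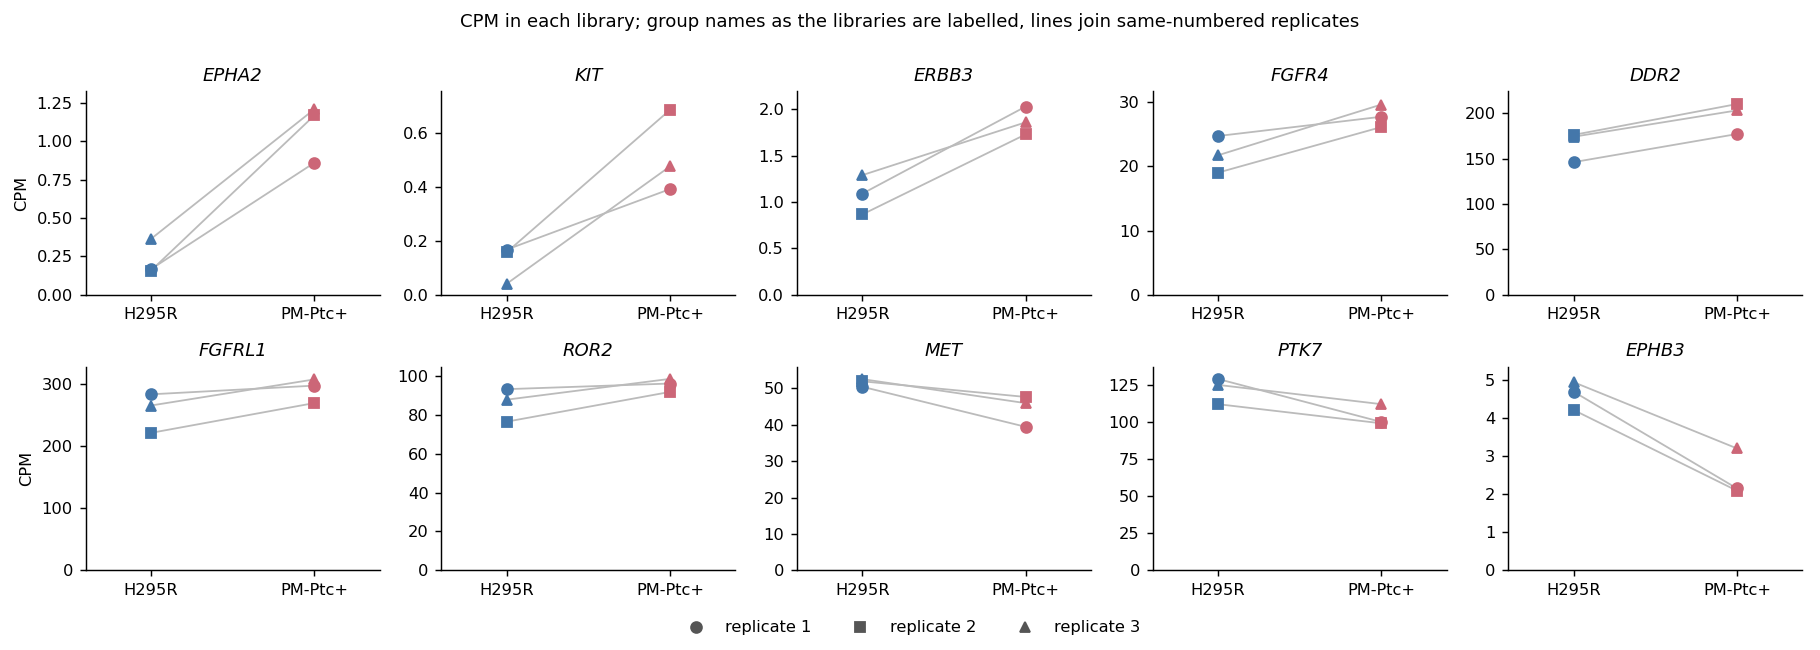
CPM in each library for the 10 receptors that passed with the replicate block, EPHA2 and EPHB3 among them, with a symbol per replicate number and lines between same-numbered libraries. Each line runs in the direction of the gene's fold change, and the axes start at 0.

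Receptors of the same class outside the 47 were compared from a list of 12, of which 8 were tested. AXL and EPHA10 passed, both higher in the Ptc+-labelled libraries, and 5 of the 8 passed with the block, all higher. Over all tested genes 3.73% passed without and 22.5% with the block. AXL, the third TAM receptor, had 9, 18 and 19 counts in the parental-labelled and 76, 79 and 86 counts in the Ptc+-labelled libraries. The log2 fold change was 2.39 (SE 0.250, adjusted p = 0.00132), a 5.26-fold difference, and the adjusted p was at most 0.0101 with any library left out. EPHA10, an Eph receptor without kinase activity, had 2.13, 2.09 and 2.39 against 4.34, 3.90 and 3.76 CPM (log2 fold change 0.86, SE 0.150, adjusted p = 0.0171). When single libraries were dropped, it passed only without parental-labelled replicate 1, and the adjusted p of the other 5 fits was 0.0554 to 0.0769. IGF1R, the IGF2 receptor, passed only with the block (0.00160), at 85.9 and 102 CPM on average.

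Of 68 ligands, 37 were tested and 3 passed, all higher in the Ptc+-labelled libraries. With the replicate block 13 passed, 7 higher and 6 lower, beside 3.73% of all tested genes without and 22.5% with the block. The median log2 fold change of the 37 was 0.06. PDGFD, a PDGF that binds PDGFRB, had 63.7, 57.1 and 56.6 CPM in the parental-labelled and 100, 97.1 and 98.8 CPM in the Ptc+-labelled libraries, far apart. Its log2 fold change was 0.74 (SE 0.0761, adjusted p = 0.00124), and it passed with any library left out. NRG4, a ligand of ERBB4, had 7.91, 7.99 and 8.70 against 12.0, 14.3 and 12.1 CPM (log2 fold change 0.64, SE 0.113, adjusted p = 0.0179). CSF1, the ligand of CSF1R, had 1.17, 1.34 and 0.890 against 2.43, 1.97 and 2.25 CPM (log2 fold change 0.96, SE 0.210, adjusted p = 0.0414). With single libraries left out, NRG4 passed in 2 of 6 fits with an adjusted p of up to 0.0816, and CSF1 in none, at 0.0537 to 0.157. The fits that lost NRG4 were those without replicate 2 or 3 of either group. The receptors PDGFRB, ERBB4 and CSF1R of these 3 ligands had at most 4 counts in any library. The other 10 ligands that passed passed only with the block, and were named after their values were seen. Of these, NRG1, KITLG, EFNA5 and AGRN were higher in the Ptc+-labelled libraries, and MST1, PDGFA, VEGFA, PROS1, EFNA3 and WNT5A were lower. NRG1, a ligand of ERBB3, had 3.36 and 5.02 CPM on average (log2 fold change 0.57, adjusted p = 0.253 without and 0.00688 with the block). KITLG, the ligand of KIT, had 5.56 and 7.07 CPM (0.34, 0.281 and 0.0431). PROS1, which binds MERTK and TYRO3, had 12.3 and 9.98 CPM (-0.30, 0.270 and 0.0315). Ligands of both directions thus included those of receptors with counts in every library. VEGFA, at 143 and 128 CPM (-0.17, 0.349 and 0.0152), passed with the block, while its receptors FLT1 and KDR had at most 4 counts in a library.

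Of 23 adaptors, 22 were tested and GRB7 and GRB10 passed, both higher in the Ptc+-labelled libraries, against 4 with the block, all higher. The share of all tested genes was 3.73% and, with the block, 22.5%, so the 4 of 22 adaptors are no more than that background. GRB10, which binds insulin and IGF receptors, had 4.73, 3.90 and 3.76 against 13.7, 10.7 and 10.3 CPM (log2 fold change 1.49, SE 0.156, adjusted p = 0.00132). GRB7, which binds ERBB receptors, had 4, 7 and 6 counts against 52, 35 and 28 counts (log2 fold change 2.73, SE 0.337, adjusted p = 0.00291), and each passed with any library left out. GRB7 entered the test through the Ptc+-labelled libraries alone. Neither GRB7 nor AXL was tested when 10 counts were required in every library. GRB7 starts at base 39737927 of chromosome 17, next to ERBB2, which ends at base 39730426 and had a log2 fold change of -0.04 (SE 0.132). The study placed GRB7 and GRB10 in a gene module derived from these same libraries, so their calls are not independent evidence, and their direction, like every other here, depends on the group labels.

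Of 18 inhibitors of receptor signaling, 16 were tested, and DUSP5 was higher while DUSP4 and SPRED2 were lower. With the block the counts were 4 higher and 3 lower, where 3.73% of all tested genes passed without and 22.5% with it. DUSP4 and DUSP5 are phosphatases that act on MAP kinases in the nucleus. DUSP4 had 8.79, 9.57 and 8.98 CPM in the parental-labelled and 5.20, 5.75 and 5.44 CPM in the Ptc+-labelled libraries (log2 fold change -0.74, SE 0.113, adjusted p = 0.00897), and passed with any library left out. DUSP5 had 9.04, 11.7 and 11.1 against 18.7, 17.1 and 16.4 CPM (log2 fold change 0.71, SE 0.119, adjusted p = 0.0139), and its adjusted p was 0.0580 without parental-labelled replicate 3 and 0.0567 without Ptc+-labelled replicate 2. SPRED2, which blocks the activation of Raf, had 21.7, 22.2 and 22.5 against 15.6, 16.2 and 17.3 CPM (log2 fold change -0.44, SE 0.0832, adjusted p = 0.0248). It passed without parental-labelled replicate 1 and in no other fit with a library left out, where the adjusted p reached 0.113.

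**Figure D4:**
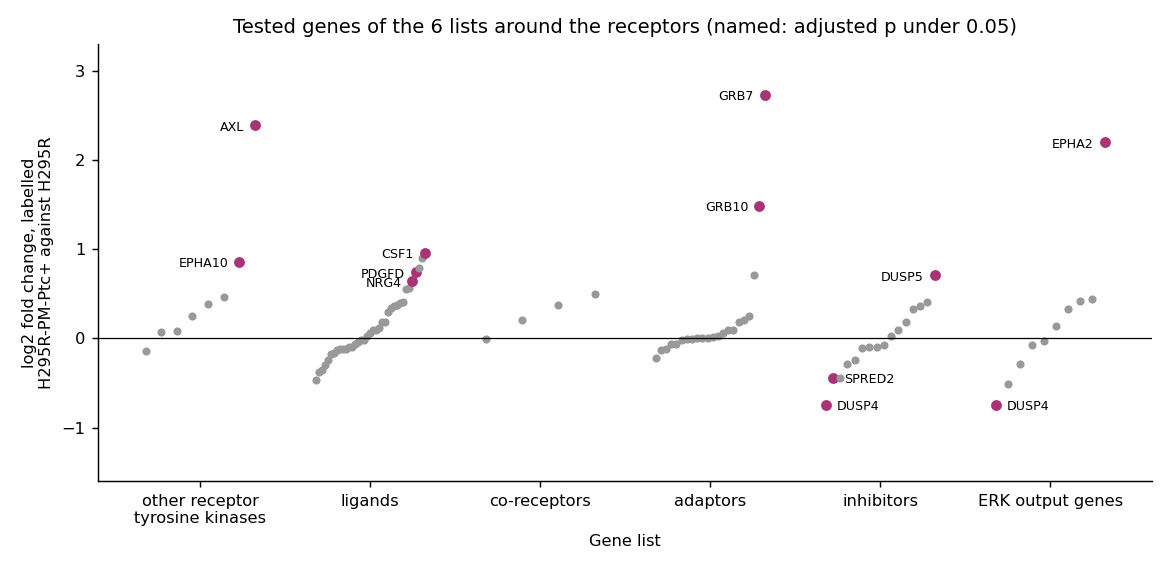
Log2 fold change, Ptc+-labelled against parental-labelled libraries, of each tested gene in the 6 lists around the receptors, with the genes that passed an adjusted p of 0.05 named and in purple. AXL (2.39), GRB7 (2.73) and EPHA2 (2.20) lie highest in their lists.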

How the data were processed

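RNA of 3 H295R and 3 H295R-PM-Ptc+ libraries was sequenced in paired reads. Per the submitters' processing notes and the paper's methods, the authors mapped reads with STAR 2.4.0a to hg38 and counted fragments per gene name (Ensembl release for GRCh38, stranded, primary alignments, multi-mapped reads included) with featureCounts, for which those sources name different Subread versions. The authors deposited raw counts, neither normalized nor filtered. The paper names an mRNA kit and the labels a total RNA kit. One row of the table has no gene name and no counts.

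Genes passing filterByExpr (16710) were tested with edgeR 4.0.16 in R 4.3.3 (TMM factors, glmQLFit followed by glmQLFTest, a two-sided test with no covariate besides group, Benjamini-Hochberg over all of them), and standard errors came from that fit. CPM use TMM-scaled library sizes. Exon lengths were taken from the deposited table on the primary chromosome. DESeq2 1.42.0, other size factors, other count filters, a replicate block and leaving out each library were alternatives. Same-numbered replicates were taken as pairs for the block, since their deviations from the group means correlated at 0.497, 0.307 and 0.228 over genes. Parental-labelled replicate 3 and Ptc+-labelled replicate 2 also correlated, at 0.15, as did parental-labelled replicate 2 and Ptc+-labelled replicate 3, at 0.109. Replicate 1 of either group correlated negatively with replicates 2 and 3 of the other. The pairing of replicates 2 and 3 is thus less certain than that of replicate 1. The labels do not say whether replicates are separate cultures, so p-values measure the spread between these libraries, in which the chi-square per gene between replicates was 6.02 to 28.4 (near 1 for counting error alone). Intervals are exact (Clopper-Pearson) and cover counting error only.

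The receptors and the lists were chosen with earlier results of these data known. Genes named are receptors that passed in either fit, receptors whose groups did not overlap, the 10 highest per kilobase, those too low to test, and list genes that passed. Other list genes were named after their values were seen. Promoter sequences and their starts come from RefSeq (GRCh38.p14), matched by symbol for 43 of 47 receptors, and their motifs were picked after the results were known.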

Additional observations from a re-analysis of the deposited data

How the results depend on the processing

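The number of receptors with an adjusted p under 0.05 was 1 higher and 1 lower in the Ptc+-labelled libraries. It became 7 and 3 with the replicate block, 2 higher without a filter on low counts, and 0 higher when at least 10 counts were required in every library, a filter that removes EPHA2 itself. Leaving out single libraries gave 0 to 2 higher and 0 to 1 lower. The 6 lists held 11 genes that passed, EPHA2 among them, 35 with the replicate block and 5 to 15 with a library left out, the lowest of these without Ptc+-labelled replicate 2. DESeq2 and relative log expression size factors called EPHA2 and EPHB3 and no other of the 47 receptors. Over 21 named genes and 227 alternative values, none changed sign, 29 lost and 10 gained an adjusted p under 0.05, and the other 188 kept their side. Over all genes, 624 passed, 3758 with the replicate block, 1111 without a filter, 810 without parental-labelled replicate 1 and 219 to 430 in the other 5 fits that left out a library. The cause of these differences was not tested. The replicate block changed no other call among the named receptors and list genes than those given above and beside the results. At this depth 19 of the 47 receptors could not be tested.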

Other observations

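Co-receptors, which present ligands to receptor tyrosine kinases, and output genes of the ERK pathway were also counted. Of 9 co-receptors 4 were tested, and none passed with edgeR or DESeq2, while 1 had an unadjusted p under 0.05. With the replicate block 3 passed, all higher in the Ptc+-labelled libraries, beside 22.5% of all tested genes. These were GFRA2, a co-receptor of RET, with 7.41, 10.6 and 11.9 CPM in the parental-labelled and 12.5, 15.2 and 14.7 CPM in the Ptc+-labelled libraries, and the neuropilins NRP1 and NRP2, which bind VEGF and semaphorins. GFRA2 libraries did not overlap between the groups, at a log2 fold change of 0.50 (SE 0.169, adjusted p = 0.158 without and 0.00100 with the block, edgeR), and it also passed without a filter on low counts. RET itself had 5 to 9 counts per library. GFRA2 belongs to the same study module as GRB7 and GRB10, which was derived from these libraries.

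All 10 ERK output genes were tested. EPHA2 was higher and DUSP4 lower in the Ptc+-labelled libraries, and with the block 4 were higher and 1 lower, beside 3.73% and 22.5% of all tested genes. ETV5, a transcription factor induced by FGF signaling, had 58.1, 46.2 and 47.2 against 72.1, 66.2 and 64.5 CPM without overlap (log2 fold change 0.42, SE 0.102, adjusted p = 0.0590 without and 3.56e-05 with the block, edgeR). ETV5 also passed with DESeq2, without a filter on low counts and without parental-labelled replicate 1. ETV4 had 8.62, 7.32 and 8.33 against 11.1, 10.1 and 11.7 CPM (log2 fold change 0.44, SE 0.114, adjusted p = 0.0773 without and 0.00311 with the block, edgeR). CCND1 and SPRY2 were lower in the Ptc+-labelled libraries, also without overlap, at log2 fold changes of -0.51 and -0.29. Their adjusted p was 0.263 and 0.353 without and 0.124 and 0.134 with the block (edgeR). Of the 10 genes 5 had a log2 fold change above 0. The median log2 fold change of the 10 genes was 0.06, beside 0.00 over all tested genes. EPHA2 and EPHA4 are also counted among the receptors, and SPRY2, SPRY4, DUSP4 and DUSP6 among the inhibitors.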
